A study of Homo sapiens with 4 samples.

Results

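The lysosomal and autophagy genes of SUM149PT breast cancer cells were compared between cells with an EMP2 knockdown and cells with a control vector. The set holds 57 genes, taken by name: enzymes of the lysosomal lumen, the glycoproteins that serve them, membrane proteins and proton pump subunits of the lysosome, the transcription factors TFEB, TFE3 and MITF, and genes of autophagosome formation and cargo selection. All 57 had a row among the 25343 genes of the deposited table. Of these, 56 reached 1 CPM (reads of a gene scaled to the size of the library) in 2 or more of the 4 libraries and entered the test, as did 13661 genes in all. CTSK, the collagen-degrading cathepsin of osteoclasts, was left out, with 0.574 and 1.12 CPM in the knockdown libraries, against 0.277 and 0.454 CPM in the control libraries.

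Lysosomes are acidic compartments in which soluble hydrolases break down protein, glycans and lipids. Most of these enzymes reach the lysosome with a mannose 6-phosphate tag that receptors in the Golgi recognise, and a membrane proton pump, the V-ATPase, keeps the lumen acidic. Autophagosomes, whose membranes carry lipid-bound proteins of the LC3 and GABARAP families, deliver cytoplasm to lysosomes. TFEB and TFE3 activate many genes of both systems through an element around the letters CACGTG when the kinase complex mTORC1 on the lysosome is inactive. In breast cancer, cathepsin D is known as an abundant and partly secreted protease.

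SUM149PT is a line established from an inflammatory breast cancer. The knockdown group had 2 libraries from cells stably infected with a lentivirus that expresses a short hairpin RNA (shRNA) against EMP2, which encodes a tetraspan protein of the plasma membrane, and the control group had 2 libraries from cells stably infected with a control vector. By the labels both knockdown libraries carried 1 and the same shRNA construct, and all cells grew in the same serum-containing medium with insulin and hydrocortisone. The labels do not state whether the libraries of 1 group stem from different cultures. The p-values therefore rest on the spread between these libraries alone, which can be technical. The knockdown libraries held 13874599 and 13360907 recovered reads and the control libraries 14647053 and 13387914. EMP2 stood at 23.0 and 22.6 CPM in the knockdown libraries, against 126 and 125 CPM in the control libraries, or 18.2% of the control mean, with both knockdown libraries far below both controls (log2 change -2.43, SE 0.051, limma adjusted p = 3.7e-15).

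At the adjusted cut-off, lysosomal and autophagy genes were called in both directions in about equal numbers. The knockdown had higher levels of 10 and lower levels of 11 of the 56 tested (limma on log2(CPM + 0.5), adjusted p under 0.05), which is 37.5% against 33.4% of all genes tested. By direction the background was 16.6% higher and 16.8% lower at this cut-off. At an unadjusted limma p under 0.05, 10 of the set were higher and 17 lower. The share of all genes at that looser cut-off was not taken, so these counts have no background and show no lean of the set. A mean level of 5 CPM or more was reached by 54 of the 57 genes. At such levels 38.2% of all genes were called, so the share of calls was near that of all well-expressed genes. The median log2 change was 0.0028 over the set and 0.0037 over all genes tested, and the median size of a change, either way, was 0.13 against 0.14. Changes were mostly small. In such bulk RNA, fewer cells that express a gene and less of its RNA per cell cannot be told apart. Only CTSD, MITF and CTSV were both called and changed by at least 1.5-fold, as did 5.83% of all genes tested. In 34 of the 56 genes both knockdown libraries lay on the same side of both controls, or 60.7%, against 65.6% of all genes. The number of calls depended on the test. edgeR's quasi-likelihood test on the recovered reads called 10 higher and 11 lower, where 33.0% of all genes were called. DESeq2 called 6 higher and 6 lower, where 16.9% of the genes given an adjusted p were called.

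**Figure D1:**
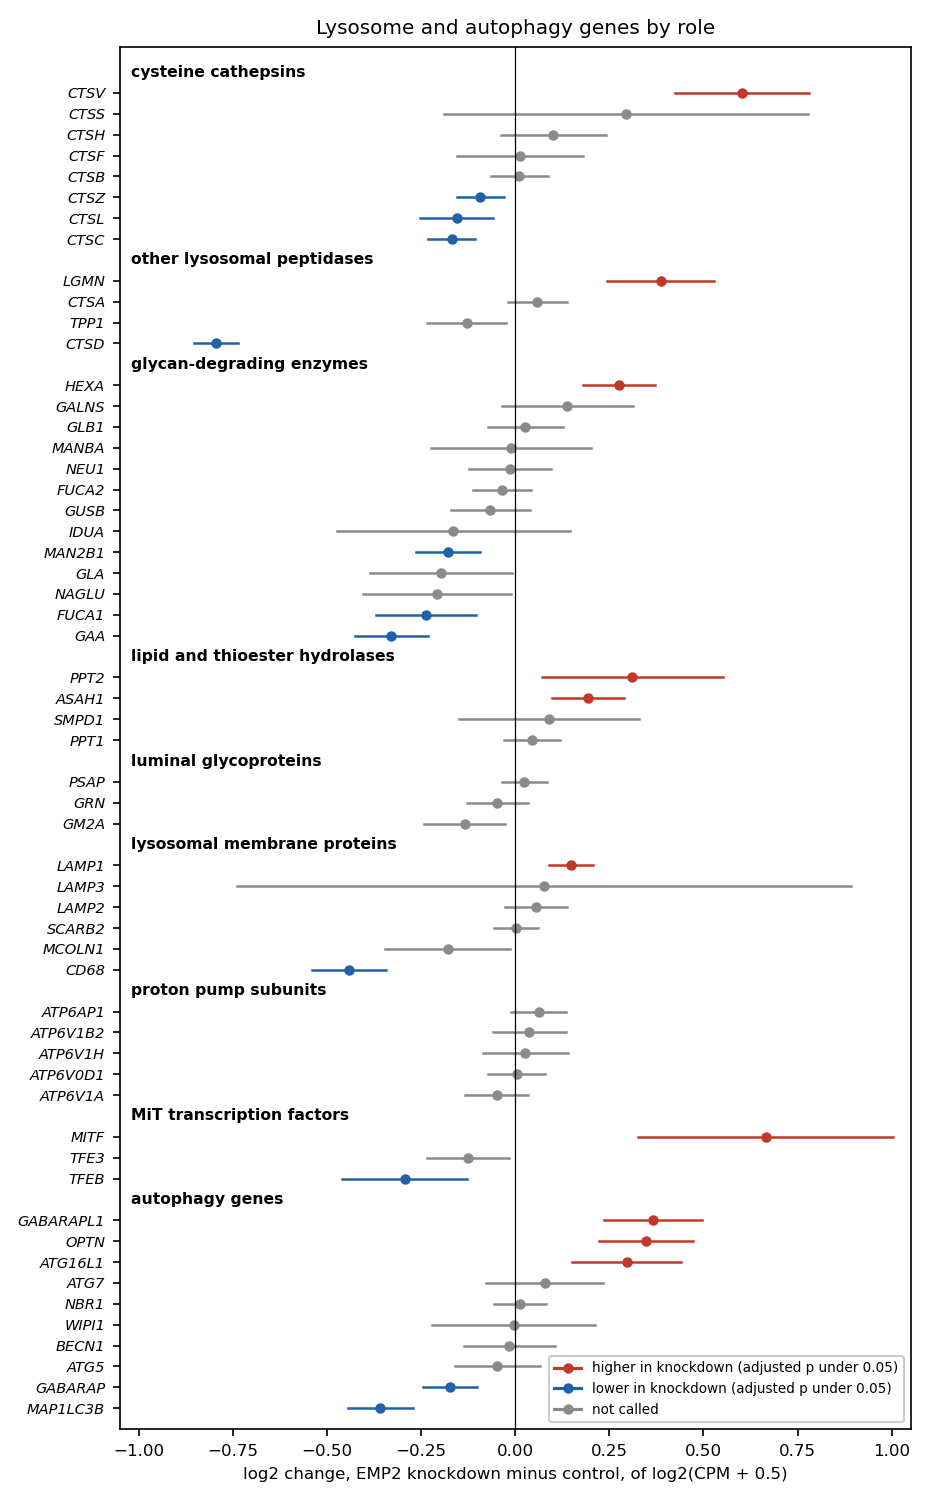
Log2 change (knockdown minus control, on the log2(CPM + 0.5) scale) of the 56 genes tested, grouped by role; points are limma estimates, lines 95% confidence intervals, and colour marks the call. Called genes lie on both sides of 0 in the peptidase, glycan-degrading, membrane, transcription factor and autophagy groups, while the 5 proton pump subunits sit within -0.049 to 0.063.

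The plot of level against change shows CTSD apart from the other lysosomal genes, at the highest level of the set. Per kilobase of exon, the scale on which levels of different genes can be set side by side, CTSD averaged 415 CPM over the 4 libraries. The cathepsin CTSZ followed at 171, the saposin precursor PSAP at 166, the membrane protein LAMP1 at 145 and progranulin (GRN) at 73.5 CPM per kilobase. The lowest 3 were LAMP3, CTSK and CTSS at 0.216, 0.359 and 0.517 CPM per kilobase, genes known mainly from dendritic cells, osteoclasts and antigen-presenting cells. These levels use exon lengths of GENCODE v29, which may not be the annotation the authors counted with.

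**Figure D2:**
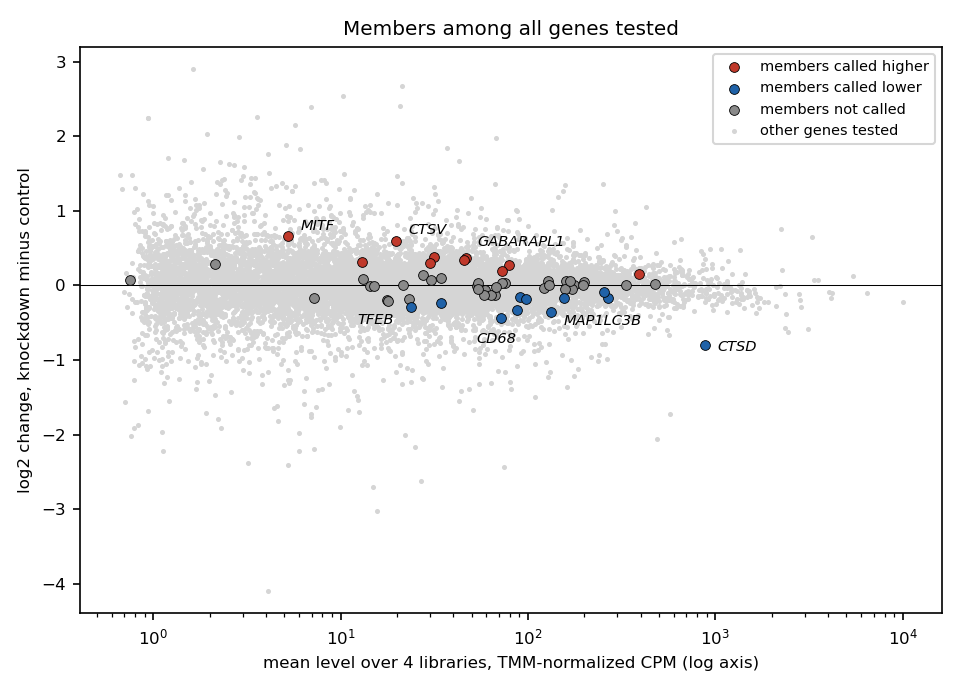
Log2 change (knockdown minus control) against the mean level over the 4 libraries in TMM-normalized CPM (log axis) for all 13661 genes tested (light grey), with the lysosomal and autophagy genes coloured by call. CTSD is the most abundant gene of the set and the one with the lowest log2 change (-0.80); MITF has the highest (0.67) at a low level.

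Some promoters of the set hold the letters of the element known to bind TFEB and TFE3. RefSeq promoters (GRCh38.p14, 250 bases before to 50 after the start) were at hand for 43 of the 57 genes and for 27305 genes in all. The E-box CACGTG stood in 9 of the 43 (20.9%), against 7.27% of all promoters. The longer palindrome TCACGTGA stood in 6 (14.0%, against 1.01%). The 10-base palindrome in capitals in the GAA windows below, which extends it by 1 base on each side, stood in 3 (6.98%, against 0.359%). Each motif reads the same on both strands and holds the shorter ones, so the counts overlap. A match says only that the letters are present. The windows below are those of the called genes CTSD, GAA and LAMP1 and, for comparison, of uncalled genes with a long match, with the longest matching palindrome in capitals. For LAMP1, GALNS, MCOLN1 and CTSA further matches in the same promoter are not shown.
CTSD, chr11:1763957-1763986, minus strand: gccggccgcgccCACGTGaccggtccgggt
GAA, chr17:80101493-80101522, plus strand: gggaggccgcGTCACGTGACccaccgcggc
GAA, chr17:80101538-80101567, plus strand: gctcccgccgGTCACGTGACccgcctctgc
LAMP1, chr13:113297199-113297228, plus strand: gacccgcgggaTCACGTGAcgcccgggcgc
GALNS, chr16:88857104-88857133, minus strand: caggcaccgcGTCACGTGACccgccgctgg
MCOLN1, chr19:7522598-7522627, plus strand: gggctaccggGTCACGTGACcgaggcacag
CTSA, chr20:45891298-45891327, plus strand: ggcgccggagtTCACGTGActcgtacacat
ATP6V0D1, chr16:67481199-67481228, minus strand: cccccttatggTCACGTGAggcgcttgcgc
GAA, the lysosomal glucosidase that digests glycogen, had 2 copies of the 10-base palindrome, and was lower in the knockdown. GALNS and MCOLN1 had 1 copy each and were not called. Among the 9 genes with the E-box 1 was called higher and 2 lower (33.3% called), with a median log2 change of 0.0041. Among the 34 without it 6 were higher and 9 lower (44.1% called), with a median of -0.041. Of all genes tested 33.4% were called. These shares and medians were not tested against each other.

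Among the peptidases, cathepsin D fell and cathepsin V and legumain rose. CTSD encodes cathepsin D, the main aspartic protease of lysosomes, and lies on chromosome 11 from 1752752 to 1764573 on the minus strand (GRCh38). It stood at 665 and 624 CPM in the knockdown libraries, against 1112 and 1124 CPM in the control libraries, so that the knockdown mean was 57.6% of the control mean (log2 change -0.80, SE 0.027, limma adjusted p = 1.38e-12). Both knockdown libraries lay far below both controls, and the gap was many times the distance between libraries of a group. The call held in every alternative run. GENCODE v29 places a second locus of the same strand, AC068580.4, over 54.9% of the CTSD exon bases, and reads in that stretch cannot be assigned to one locus from these values.

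CTSV, a cathepsin L relative known from thymus, testis and skin, stood at 23.5 and 24.6 CPM in the knockdown libraries, against 15.6 and 15.7 CPM in the control libraries. Both knockdown libraries were above both controls (1.53-fold in mean CPM, log2 change 0.60, SE 0.084, limma adjusted p = 3.03e-05). CTSL, its closest relative and a general lysosomal cysteine protease, went the other way, with 82.3 and 88.8 CPM in the knockdown libraries, against 94.2 and 96.3 CPM in the control libraries (log2 change -0.16, SE 0.045, limma adjusted p = 0.0141). No stretch of 50 bases, the length of a read, was shared between annotated coding transcripts of CTSL and CTSV, so reads without mismatches could be told apart. The CTSL call was lost without knockdown replicate 1 (limma adjusted p = 0.150) and without control replicate 2 (0.0680), and with DESeq2 (adjusted p = 0.162). LGMN, the asparaginyl protease legumain that also matures cathepsins, stood at 37.0 and 34.8 CPM in the knockdown libraries, against 27.3 and 27.3 CPM in the control libraries (log2 change 0.39, SE 0.067, limma adjusted p = 0.000268). Its groups did not overlap.

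The other peptidases changed by little or did not pass the test. CTSC, dipeptidyl peptidase I, which activates granule proteases, was at 88.9% of the control mean (log2 change -0.17, limma adjusted p = 0.000318). CTSZ, a carboxypeptidase, was at 93.8% (-0.092, limma adjusted p = 0.0242), which rested on single libraries: the limma adjusted p was 0.115 with knockdown replicate 1 left out, 0.0580 with control replicate 1 left out and 0.124 with control replicate 2 left out. CTSB, the most studied cathepsin of tumour invasion, averaged 177 ± 4.5 CPM in the knockdown and 176 ± 6.5 CPM in the control (SD, n = 2 each), and its 95% interval of the log2 change ran from -0.065 to 0.088. The broad-acting cathepsin CTSF averaged 21.6 ± 0.089 CPM in the knockdown and 21.4 ± 0.040 CPM in the control (SD, n = 2 each). CTSH, an aminopeptidase, had a log2 change of 0.10 and CTSS, the protease of MHC class II loading, of 0.29, neither past the test. CTSS was low, with 2.37 and 2.40 CPM in the knockdown libraries, against 2.14 and 1.59 CPM in the control libraries. Protective protein CTSA averaged 130.2 ± 3.0 CPM in the knockdown and 125 ± 0.99 CPM in the control (SD, n = 2 each), and the tripeptidyl peptidase TPP1 had a log2 change of -0.13 (limma adjusted p = 0.0546).

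**Figure D3:**
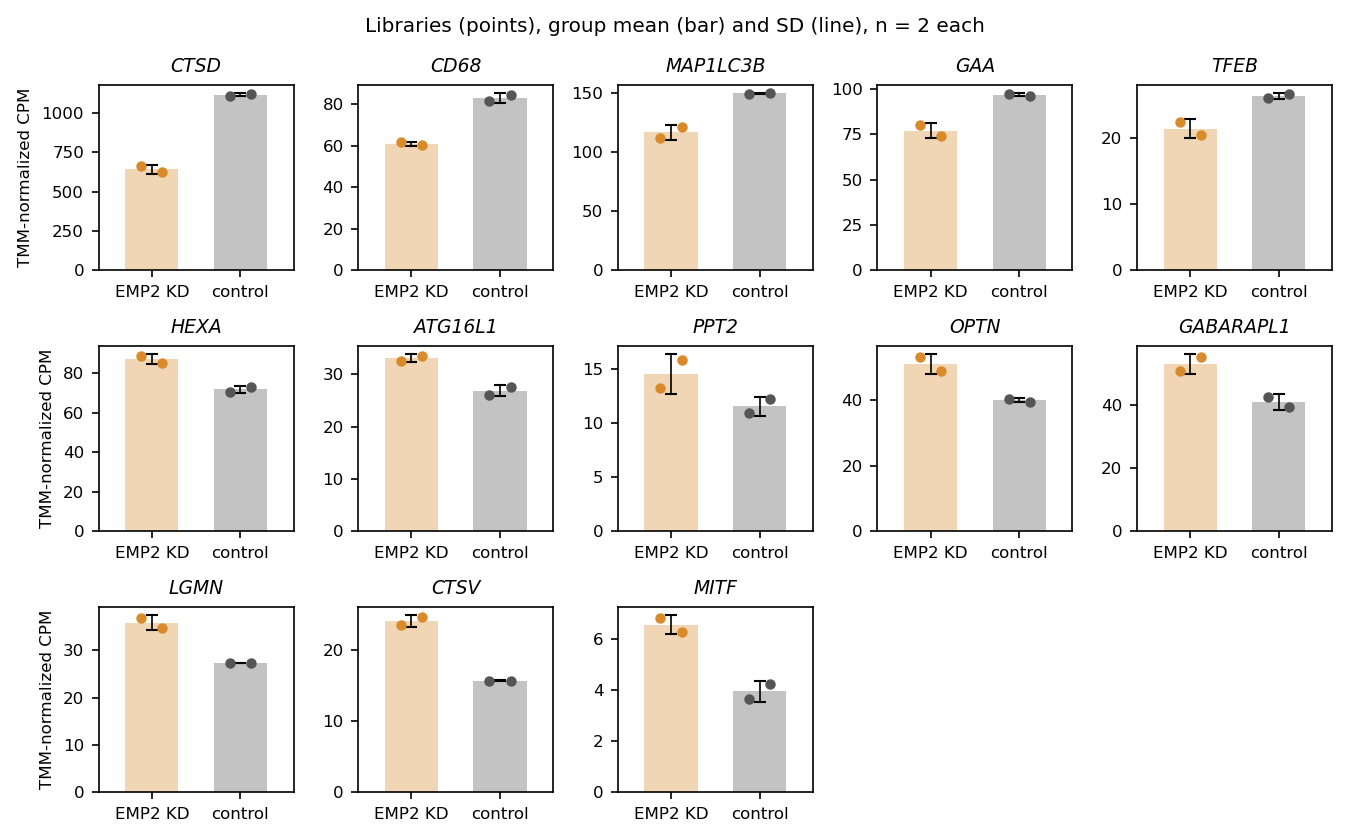
TMM-normalized CPM of the 13 called genes with a log2 change of at least 0.25 in size, in EMP2 knockdown (orange, left) and control (grey, right) libraries; points are libraries, bars group means, lines SD (n = 2 each), and each axis starts at 0. The groups do not overlap in any of the 13 genes, with the narrowest gap for PPT2. Picking genes by their call favours such separation, and 65.6% of all genes tested also had no overlap.

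Most of the difference in summed hydrolase mRNA lay in CTSD. The 30 hydrolase genes of the set summed to 2724 and 2681 CPM in the knockdown libraries, against 3220.4 and 3226 CPM in the control libraries, or 83.9% of the control mean. Without CTSD the other 29 summed to 2059.7 and 2058 CPM in the knockdown libraries, against 2108 and 2103 CPM in the control libraries (97.8%). CTSD made up 24.4% and 23.3% of the sum in the knockdown libraries, against 34.5% and 34.8% in the control libraries. A sum of CPM weights long transcripts more, and it was not tested.

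**Figure D4:**
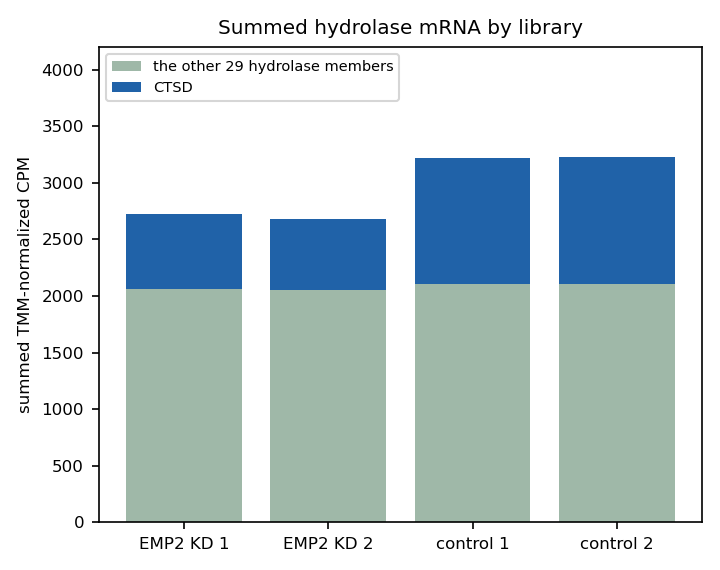
Summed TMM-normalized CPM of the 30 hydrolase genes in each library, split into CTSD (blue) and the other 29 genes (green). The green parts reach between 2058 and 2108 CPM in all 4 libraries, and most of the difference between groups lies in the blue part.

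Of 13 glycan-degrading enzymes 1 rose and 3 fell, which is 30.8% called and near the 33.4% of all genes tested. HEXA, the alpha chain of the hexosaminidase that degrades ganglioside GM2, stood at 88.8 and 85.2 CPM in the knockdown libraries, against 70.4 and 73.1 CPM in the control libraries (log2 change 0.28, SE 0.045, limma adjusted p = 0.000157). GAA stood at 80.0 and 74.0 CPM in the knockdown libraries, against 97.4 and 96.2 CPM in the control libraries (log2 change -0.33, SE 0.046, limma adjusted p = 3.16e-05). Neither gene had overlapping groups, and both calls held in every alternative run. The other falls were smaller: the mannosidase MAN2B1 was at 88.3% of the control mean (log2 change -0.18, limma adjusted p = 0.00259) and the fucosidase FUCA1 at 84.6% (-0.24, limma adjusted p = 0.00778). The same-strand locus AC010422.3 covers 22.05% of the MAN2B1 exon bases and AC009690.2, on the other strand, 10.7% of those of HEXA, where reads may be shared. Of the 50-base stretches, 31.1% for MAN2B1 and 21.1% for HEXA are shared with other loci. Of the 9 enzymes not called, the galactosidase GLA had a log2 change of -0.20, the glucosaminidase NAGLU of -0.21 and the sulfatase GALNS of 0.14. The galactosidase GLB1 averaged 76.4 ± 3.7 CPM in the knockdown and 74.9 ± 0.040 CPM in the control (SD, n = 2 each), the glucuronidase GUSB 57.5 ± 0.11 CPM in the knockdown and 60.2 ± 1.7 CPM in the control (SD, n = 2 each), the sialidase NEU1 53.0 ± 0.87 CPM in the knockdown and 53.5 ± 0.76 CPM in the control (SD, n = 2 each) and the fucosidase FUCA2 119.9 ± 0.96 CPM in the knockdown and 123 ± 1.1 CPM in the control (SD, n = 2 each). The mannosidase MANBA averaged 14.3 ± 1.1 CPM in the knockdown and 14.4 ± 0.41 CPM in the control (SD, n = 2 each) and the iduronidase IDUA 6.84 ± 1.2 CPM in the knockdown and 7.66 ± 0.021 CPM in the control (SD, n = 2 each). MANBA shares 18.8% of its 50-base stretches with other loci.

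Of 4 enzymes that act on lipids and thioesters, 2 rose by limma and 0 by DESeq2. That is 50.0% called by limma, against 33.4% of all genes tested, on few genes. ASAH1, the acid ceramidase, stood at 76.1 and 78.3 CPM in the knockdown libraries, against 67.4 and 67.5 CPM in the control libraries (log2 change 0.19, SE 0.045, limma adjusted p = 0.00323). PPT2, a thioesterase, stood at 13.2 and 15.8 CPM in the knockdown libraries, against 10.9 and 12.2 CPM in the control libraries (log2 change 0.31, SE 0.11, limma adjusted p = 0.0450). The groups of PPT2 lay close together, and its call was lost without knockdown replicate 2 (adjusted p = 0.362) and without control replicate 1 (0.220). PPT2 also shares 52.5% of its 50-base stretches with other loci, most with the readthrough locus PPT2-EGFL8, which stood at 2.30 and 0.824 CPM in the knockdown libraries, against 1.87 and 1.29 CPM in the control libraries. The depalmitoylase PPT1 averaged 201 ± 2.2 CPM in the knockdown and 195 ± 8.2 CPM in the control (SD, n = 2 each) and the acid sphingomyelinase SMPD1 13.7 ± 2.0 CPM in the knockdown and 12.8 ± 0.16 CPM in the control (SD, n = 2 each), neither called. CAP1, on the other strand, covers 27.3% of the PPT1 exon bases, where reads may be shared. Of the 3 luminal glycoproteins 0 were called by limma, 0 by edgeR and 0 by DESeq2, and 1, GM2A, had an unadjusted limma p under 0.05. PSAP, the precursor of the sphingolipid activators, averaged 481 ± 3.9 CPM in the knockdown and 473 ± 16 CPM in the control (SD, n = 2 each). GRN, whose granulin peptides reside in lysosomes, averaged 169 ± 9.3 CPM in the knockdown and 175 ± 2.2 CPM in the control (SD, n = 2 each), and the GM2 activator GM2A had a log2 change of -0.13 (limma adjusted p = 0.0527).

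On the lysosomal membrane CD68 fell and LAMP1 rose. CD68, a heavily glycosylated relative of the LAMP proteins used as a macrophage marker, stood at 61.7 and 60.4 CPM in the knockdown libraries, against 81.4 and 84.7 CPM in the control libraries, or 73.5% of the control mean (log2 change -0.44, SE 0.046, limma adjusted p = 1.34e-06). The groups were well apart, and the call held in every alternative run. Of 10 leukocyte and macrophage markers, 4 (CD163, TYROBP, AIF1 and MRC1) were at 0 in all 4 libraries, and PTPRC, the pan-leukocyte antigen CD45, was at 0.287 and 0.225 CPM in the knockdown libraries, against 0.0692 and 0.0757 CPM in the control libraries. A value of 3 reads, the limit that a count of 0 allows, was between 0.208 and 0.227 CPM, for counting error only. The 10 markers summed to 20.2 and 18.6 CPM in the knockdown libraries, against 17.15 and 19.99 CPM in the control libraries, with overlapping groups. Most of the sum came from CSF1R, CD14 and LYZ. CSF1R stood at 11.6 and 11.7 CPM in the knockdown libraries, against 9.75 and 11.4 CPM in the control libraries. CD14 averaged 3.65 CPM in the knockdown and 4.30 in the control, and LYZ 3.51 and 3.28. Of these 3, the only ones tested, 0 were called by limma, 0 by edgeR and 0 by DESeq2, and 0 had an unadjusted limma p under 0.05. GENCODE v29 places AC016876.2, a locus of the same strand, over 95.3% of the CD68 exon bases. Of the 50-base stretches of CD68 transcripts, 78.2% are shared with other loci, and reads from those stretches cannot be told apart.

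LAMP1, with LAMP2 the most abundant glycoprotein of the lysosomal membrane, stood at 414 and 405 CPM in the knockdown libraries, against 365 and 376 CPM in the control libraries (log2 change 0.15, SE 0.028, limma adjusted p = 0.000534). The rise was small, and its groups did not overlap, as for 65.6% of all genes tested. LAMP2, which also serves chaperone-mediated autophagy, averaged 163 ± 8.0 CPM in the knockdown and 156 ± 3.1 CPM in the control (SD, n = 2 each). SCARB2, the receptor that carries glucocerebrosidase to lysosomes, averaged 334 ± 4.0 CPM in the knockdown and 334 ± 1.5 CPM in the control (SD, n = 2 each), with a 95% interval of the log2 change from -0.057 to 0.059. MCOLN1, a calcium channel of the lysosome, had a log2 change of -0.18 without passing the test, and LAMP3, known from dendritic cells, was near the detection limit with overlapping groups, at 1.08 and 0.449 CPM in the knockdown libraries, against 1.18 and 0.303 CPM in the control libraries. None of the 5 proton pump subunits of the set was called. The 4 V-ATPase subunits ATP6V0D1, ATP6V1A, ATP6V1B2 and ATP6V1H and the accessory protein ATP6AP1 had log2 changes between -0.049 and 0.063. Their 95% intervals all lay between -0.13 and 0.14, and 0 had an unadjusted limma p under 0.05, nor did edgeR or DESeq2 call any (0 each). ATP6V0D1 stood at 129.9 and 128 CPM in the knockdown libraries, against 129 and 129 CPM in the control libraries.

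Of the 3 transcription factors of the MiT family, MITF rose and TFEB fell. TFEB, the main activator of lysosomal genes, stood at 22.4 and 20.4 CPM in the knockdown libraries, against 26.0 and 26.6 CPM in the control libraries, or 81.3% of the control mean (log2 change -0.29, SE 0.079, limma adjusted p = 0.00833). Its groups did not overlap, but the call was lost without knockdown replicate 2 (adjusted p = 0.0746), with DESeq2 (adjusted p = 0.162) and with limma without the abundance trend (0.0642). MITF, the factor of melanocytes and osteoclasts, stood at 6.82 and 6.29 CPM in the knockdown libraries, against 3.67 and 4.24 CPM in the control libraries, or 1.66-fold the control mean (log2 change 0.67, SE 0.16, limma adjusted p = 0.00389). Both knockdown libraries were above both controls, at a level far below those of TFEB and TFE3: per kilobase of exon, MITF was at 1.07 CPM in the knockdown and 0.647 in the control, TFEB at 4.79 in the knockdown and 5.89 in the control, and TFE3 at 16.4 in the knockdown and 17.9 in the control. The MITF call was lost with DESeq2 (adjusted p = 0.0944). TFE3 averaged 56.0 ± 2.0 CPM in the knockdown and 61.2 ± 1.8 CPM in the control (SD, n = 2 each) and did not pass the test (log2 change -0.13, limma adjusted p = 0.0733). These are mRNA levels, and the factors are known to be controlled mainly by phosphorylation and entry into the nucleus, which were not measured.

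Of 10 autophagy genes 3 rose and 2 fell by limma. That is 50.0% called, against 33.4% of all genes tested and 38.2% of well-expressed genes, on few genes. The calls split the family of proteins that are bound to autophagosome membranes. MAP1LC3B, the LC3 form used to mark autophagosomes, stood at 112 and 121 CPM in the knockdown libraries, against 149 and 149.6 CPM in the control libraries, or 78.0% of the control mean (log2 change -0.36, SE 0.041, limma adjusted p = 3.4e-06). GABARAP stood at 145 and 148 CPM in the knockdown libraries, against 166 and 165 CPM in the control libraries (log2 change -0.17, SE 0.034, limma adjusted p = 0.000838). GABARAPL1 went the other way, with 50.7 and 55.1 CPM in the knockdown libraries, against 42.7 and 39.2 CPM in the control libraries (log2 change 0.37, SE 0.062, limma adjusted p = 0.000201). In each of these 3 genes the groups were fully apart. GABARAP and GABARAPL1 share no stretch of 50 bases in their coding transcripts. MAP1LC3B shares 9.30% of its stretches with other loci, most with the near-identical MAP1LC3B2, which stood at 19.4 and 15.4 CPM in the knockdown libraries, against 11.1 and 12.7 CPM in the control libraries (log2 change 0.52, limma adjusted p = 0.00241). Summed, the 2 loci were at 131 and 137 CPM in the knockdown libraries, against 160.5 and 162 CPM in the control libraries, so the sum was lower in both knockdown libraries too. GENCODE v29 places the same-strand locus AC120057.2 over 30.5% of the GABARAP exon bases, and 49.9% of the 50-base stretches of GABARAP are shared with other loci.

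OPTN, optineurin, a receptor that links ubiquitin-marked cargo and mitochondria to LC3, stood at 53.2 and 49.0 CPM in the knockdown libraries, against 40.4 and 39.6 CPM in the control libraries (log2 change 0.35, SE 0.059, limma adjusted p = 0.000205). ATG16L1, part of the complex that attaches LC3 to membranes, stood at 32.5 and 33.6 CPM in the knockdown libraries, against 26.1 and 27.6 CPM in the control libraries (log2 change 0.30, SE 0.069, limma adjusted p = 0.00312). Both genes were higher in both knockdown libraries than in either control. Its partner ATG5 averaged 53.0 ± 2.2 CPM in the knockdown and 54.7 ± 1.4 CPM in the control (SD, n = 2 each), and ATG7, the enzyme that activates LC3, 31.0 ± 1.8 CPM in the knockdown and 29.4 ± 1.8 CPM in the control (SD, n = 2 each). BECN1, of the lipid kinase complex that starts autophagosomes, averaged 67.2 ± 3.4 CPM in the knockdown and 68.0 ± 5.3 CPM in the control (SD, n = 2 each), the lipid-binding WIPI1 15.0 ± 1.6 CPM in the knockdown and 15.0 ± 0.52 CPM in the control (SD, n = 2 each) and the cargo receptor NBR1 198 ± 4.8 CPM in the knockdown and 196 ± 0.15 CPM in the control (SD, n = 2 each). None of these 5 was called, and WIPI1, BECN1 and ATG7 overlap exons of genes on the other strand over 28.5%, 23.5% and 32.2% of their bases, where reads cannot be told apart since no source used here gives the strand setting.

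Further genes of the same systems were taken in 7 lists, chosen with earlier results of these data known. Their counts are therefore a description and not an independent check. Of 115 tested, 32 were higher and 16 lower in the knockdown, with a median log2 change of 0.068, against 0.0037 over all genes. That is 41.7% called, against 33.4% of all genes tested (16.6% higher and 16.8% lower) and 38.2% of well-expressed genes. DESeq2 called 15 higher and 8 lower. For this and the lists below, edgeR called 33.0% of all genes either way, and DESeq2 16.9% of those given an adjusted p. No share of all genes was taken at an unadjusted p under 0.05. In the mannose 6-phosphate sorting list 5 of 9 rose and 0 fell by limma, against 6 and 0 at an unadjusted p under 0.05, 5 and 0 by edgeR and 4 and 0 by DESeq2, with a median of 0.21. With 9 genes this is a description, and the background of 16.6% higher and 16.8% lower is that of the adjusted limma test alone. IGF2R, the large mannose 6-phosphate receptor, which also binds IGF2, stood at 199.7 and 206 CPM in the knockdown libraries, against 149 and 151 CPM in the control libraries (log2 change 0.43, SE 0.034, limma adjusted p = 3.87e-08). SORT1, sortilin, a receptor for progranulin and saposin precursor, is in this list and its counts although it does not recognise the tag. It stood at 57.2 and 55.1 CPM in the knockdown libraries, against 39.5 and 40.7 CPM in the control libraries (log2 change 0.48, SE 0.055, limma adjusted p = 3.7e-06). In both genes the knockdown libraries lay well above the controls. The small receptor M6PR had a log2 change of 0.21 and GNPTAB, the enzyme that starts the tag, of 0.28, both called.

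**Figure D5:**
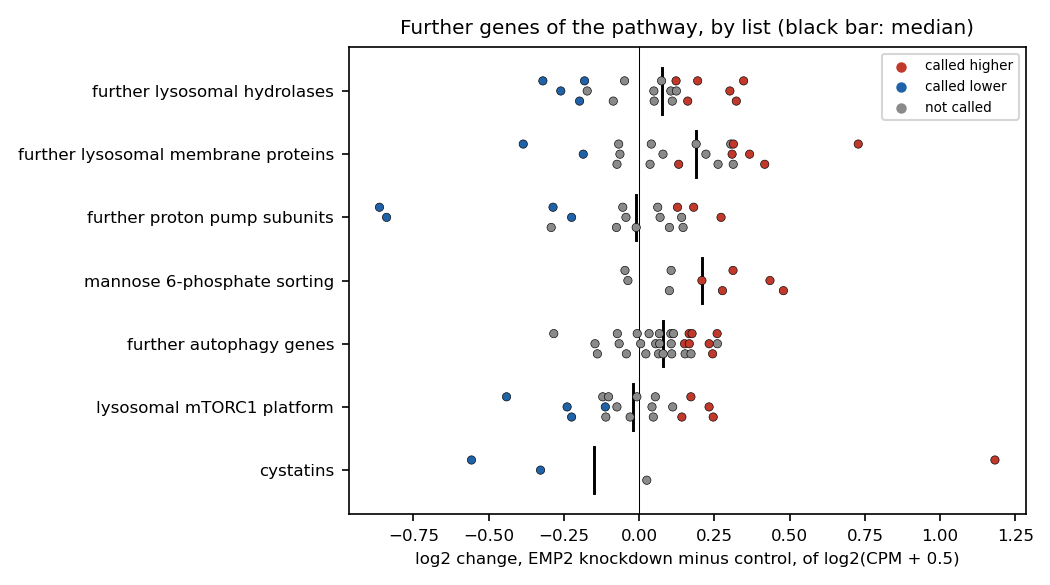
Log2 change (knockdown minus control, on the log2(CPM + 0.5) scale) of the 115 further genes tested, by list; each point is a gene, colour marks the limma call, and the black bar is the list's median. The mannose 6-phosphate sorting and further autophagy lists have called genes on the higher side alone, with medians of 0.21 and 0.079. The proton pump and mTORC1 lists have them on both sides.

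Among 19 further hydrolases tested 6 rose and 4 fell by limma, and DESeq2 called 2 higher and 2 lower. That is 52.6% called by limma, against 33.4% of all genes and 38.2% of well-expressed genes. The iduronate sulfatase IDS had 169 and 171 CPM in the knockdown libraries, against 138 and 134 CPM in the control libraries (log2 change 0.32, limma adjusted p = 1.95e-06). The sulfatase ARSB had a log2 change of 0.35, the nuclease DNASE2 of -0.18 and PLD3, an exonuclease of the phospholipase D family, of -0.26, all called. Among 19 further membrane proteins 6 rose and 2 fell by limma (42.1% called, against the same backgrounds), and DESeq2 called 3 higher and 1 lower. The sialic acid exporter SLC17A5 had 13.3 and 12.2 CPM in the knockdown libraries, against 7.68 and 7.35 CPM in the control libraries (log2 change 0.73, limma adjusted p = 0.000144), and the cholesterol exporter NPC1 had 78.9 and 82.0 CPM in the knockdown libraries, against 63.5 and 61.0 CPM in the control libraries (log2 change 0.37, limma adjusted p = 1.28e-05). The lysophospholipid transporter SPNS1 rose by a log2 change of 0.31 and the tetraspanin CD63 had one of -0.19. For both transporters the groups did not overlap.

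Among 17 further proton pump genes tested 3 rose and 4 fell (41.2% called, against 33.4% of all genes and 38.2% of well-expressed genes), and DESeq2 called 1 higher and 2 lower. The 2 lowest log2 changes were those of the cell-type-restricted subunits ATP6V0D2 (-0.86) and ATP6V1B1 (-0.84), with 2.009 and 1.723 CPM in the knockdown libraries, against 3.805 and 3.786 CPM in the control libraries for the first and 3.30 and 2.70 CPM in the knockdown libraries, against 6.29 and 5.23 CPM in the control libraries for the second. Of the general subunits, ATP6V1D had a log2 change of -0.29 and ATP6V1F of 0.27, both called. Of 29 further autophagy genes 7 rose and 0 fell by limma, against 9 and 0 at an unadjusted p under 0.05, 6 and 0 by edgeR and 4 and 0 by DESeq2. The share called by limma, 24.1%, was below the 33.4% of all genes tested. The edgeR and DESeq2 shares of all genes were 33.0% and 16.9%, and none was taken at the unadjusted cut-off. The cargo receptor SQSTM1, p62, stood at 338 and 337 CPM in the knockdown libraries, against 285 and 289.7 CPM in the control libraries (log2 change 0.23, limma adjusted p = 6.1e-06), and RB1CC1, the scaffold of the kinase complex that starts autophagy, had a log2 change of 0.24, ATG13 of the same complex one of 0.17 and the receptor TAX1BP1 one of 0.18. All 4 genes were higher in both knockdown libraries than in either control, which their choice by smallest p favours. Of all genes tested, 65.6% had groups that did not overlap.

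Genes of the mTORC1 platform on the lysosome were split by limma, with 4 of 18 rising and 4 falling (44.4% called, against 33.4% of all genes). By edgeR 3 were higher and 4 lower, where 33.0% of all genes were called. By DESeq2 0 were higher and 1 lower, where 16.9% of the genes given an adjusted p were called. At an unadjusted limma p under 0.05 there were 4 and 7, with no share of all genes taken. The kinase MTOR had a log2 change of 0.14, its partner MLST8 of -0.22, the membrane anchor LAMTOR1 of -0.24 and the small GTPase RRAGB of -0.44, all called. With control replicate 2 left out MTOR no longer passed (limma adjusted p = 0.0585), nor did MLST8 with control replicate 1 left out (0.0623). Cystatins, which inhibit cysteine cathepsins, were also split: of 4 tested 1 rose and 2 fell. That is 75.0% called, against 33.4% of all genes tested, on few genes. CST3, cystatin C, the secreted general inhibitor, stood at 192 and 195 CPM in the knockdown libraries, against 243 and 242 CPM in the control libraries (log2 change -0.33, limma adjusted p = 3.71e-07), and CSTA, the cytosolic stefin A of epithelia, at 21.4 and 20.7 CPM in the knockdown libraries, against 32.2 and 30.2 CPM in the control libraries (log2 change -0.56, limma adjusted p = 1.93e-05). The low-level CST6 rose by a log2 change of 1.18, with 4.448 and 4.944 CPM in the knockdown libraries, against 1.245 and 2.499 CPM in the control libraries. CST3 and CSTA were both lower in each knockdown library than in either control.

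Epithelial markers were abundant in all libraries, with EPCAM at 249.8 and 246 CPM in the knockdown libraries, against 236 and 240.1 CPM in the control libraries. Of 6 such markers 3 were called higher and 1 lower (66.7% called, against 33.4% of all genes tested). Of 7 fibroblast markers 3 were high enough to test, DCN (log2 change -0.79), FAP (1.10) and COL1A1 (0.14), of which FAP rose and DCN fell, while COL1A2 was at 0 in all libraries. The 7 summed to 121 and 124 CPM in the knockdown libraries, against 131 and 130.2 CPM in the control libraries. Whether these markers have a part in the lysosomal results was not tested.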

How the data were processed

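RNA of 4 SUM149PT libraries was measured. Ribosomal RNA was depleted from 1 µg of total RNA and single reads of 50 bases were sequenced, per the labels' protocols. The submitters' processing notes name STAR, bcl2fastq 2.17, DESeq2 and the build GRCh38. No source used here gives the counting program, the annotation or the strand setting. The deposited values are CPM, scaled by the authors with TMM (trimmed means, which set the bulk of genes equal) as the deposited table is named, without a length correction. All values were whole multiples of 1 read's worth to within 0.1 read (100% in each library), between 0.0692 and 0.0757 CPM, so whole reads were recovered, and 10 genes took 4.68% to 4.86% of a library. Replicates differed beyond counting noise (chi-square per gene 1.64 in the knockdown and 1.66 in the control), so none was taken as a copy of another and all 4 libraries were kept. That does not show that they came from separate cultures. Such scaling hides a change shared by most genes.

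The main test was limma 3.58.1 (R 4.3.3), two-sided, with group as the single term and a trend of variance on abundance. It was fitted to log2(CPM + 0.5) of the 13661 genes that reached 1 CPM in 2 or more libraries, and p-values were adjusted over them (Benjamini-Hochberg); changes on this scale understate those of low genes. edgeR 4.0.16 (quasi-likelihood) and DESeq2 1.42.0 on the recovered reads, other pseudocounts, filters and scalings, a replicate block and leaving out each library were alternatives. The genes and lists were chosen with earlier results of these data known. All 57 genes may be named. Those called with a log2 change of at least 0.25 in size get each library's value. Of each further list up to 4 called genes by smallest p are named. In genes picked by their call the groups mostly lie apart, so such separation adds nothing to the call. Symbols that a spreadsheet had turned into dates (28 rows) stayed in the fit unnamed. Exon lengths, overlaps and shared 50-base stretches came from GENCODE v29 (GRCh38), promoters from RefSeq; protein sequences were not used here.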

Additional observations from a re-analysis of the deposited data

How the results depend on the processing

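The direction of all 21 called genes of the set was the same in every alternative run, and 8 of them (CTSV, CTSD, LGMN, HEXA, GAA, CD68, MAP1LC3B and OPTN) were called in all. Counts moved most with the test. DESeq2 called 6 genes of the set higher and 6 lower, 15 further genes higher and 8 lower, and 993 higher and 1181 lower among all genes, against 2269 and 2294 in the main test. Limma without the abundance trend called 6 and 5 of the set, 10 and 6 of the further genes and 916 and 1016 of all. DESeq2 ended 9 calls of the set (CTSL, CTSZ, MAN2B1, FUCA1, PPT2, ASAH1, TFEB, MITF and ATG16L1) and limma without the trend 10 (CTSC, CTSL, CTSZ, MAN2B1, PPT2, ASAH1, LAMP1, TFEB, GABARAP and GABARAPL1); the cause was not tested. Of the further genes named, DESeq2 ended the calls of SPNS1, ATP6V0D2, RRAGB, MTOR and MLST8, and limma without the trend those of ARSB, DNASE2, CD63, ATP6V1F, ATP6V1D, M6PR, GNPTAB, ATG13, TAX1BP1, LAMTOR1, MTOR, MLST8, CST6 and MAP1LC3B2. Without TMM scaling the call of CTSZ was lost, and that of PPT2 with quantile scaling or without the filter on low values. Leaving out 1 library at a time gave 9 to 10 genes of the set higher and 9 to 11 lower, 24 to 29 further genes higher and 15 to 17 lower, and 1823 to 2029 higher and 1842 to 2059 lower among all genes. The median log2 change of the set was 0.025 without TMM scaling, where that of all genes was 0.025. Over the libraries left out it ran from -0.010 to 0.012. With the replicate number as a block 10 of the set were higher and 11 lower. Same-numbered libraries did not deviate together (r = 0.016 over 11095 genes). That value cannot tell whether same-numbered libraries were grown or prepared together. Not called in the main test, TPP1 and GM2A were called with a filter at a mean of 5 CPM and without knockdown replicate 1 (limma adjusted p = 0.0194 and 0.0166), and GALNS without knockdown replicate 2 (0.0285). Depth limits CTSK, CTSS and LAMP3, with few reads in each library.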
